A study of Homo sapiens with 197 samples.

Results

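The wells described here are the 8 wells of IMR90 cells that received an activated RIO, ADCK, VRK or FASTK kinase. They were chosen by name, as the lanes labelled RIOK1, RIOK2, RIOK3, ADCK4, ADCK5, VRK2, VRK3 and FASTK, and make up 4.37% of the kinase wells compared and 4.06% of all lanes. All other kinase wells were the comparison group. IMR90 cells are non-transformed human lung fibroblasts. Each kinase was delivered by a retrovirus, carried a myristoylation signal and a Flag tag, and was expressed for 4 days before RNA was recovered. The 2 IMR90 control wells, IMR90#1 and IMR90#2, are labelled as empty-vector wells, while the study's account of its tag measurement calls the IMR90 cells uninfected. A myristoylated kinase sits at membranes whatever its usual place in the cell, which limits each well as a model of the natural enzyme. RNA was counted with color-barcoded Nanostring probes, and the screen asked whether any activated kinase turns on tissue-restricted genes.

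These kinases lie outside the large conventional families. RIO kinases are ancient ATP-binding proteins that act late in the maturation of the small ribosomal subunit: RIOK1 and RIOK2 are needed for the final steps in the cytoplasm, and RIOK3 joins the same particles and has been linked to antiviral signaling. The ADCK proteins are mitochondrial relatives of bacterial UbiB, and ADCK4, now named COQ8B, helps to make coenzyme Q, whereas ADCK5 is little studied. VRK2 is an active serine/threonine kinase anchored in the membranes of the endoplasmic reticulum and nuclear envelope, and VRK3 is a pseudokinase of the nucleus. FASTK binds RNA in mitochondria, where it stabilizes a transcript of the mitochondrial genome. The probe panel held no probe for any of these 8 kinases, so their own RNA could be read only through vector sequence.

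Each kinase had 1 lane. The 8 wells are different kinases and not replicates of one condition, and p-values below measure the spread between wells. The FASTK lane had a title ending in 70-2, the form used for the second lanes that were left out, but no other lane carried its name or its number. Total counts ran from 77006 in the RIOK1 well to 262225 in the FASTK well, against 29629 to 340763 in the other kinase wells and 142255 and 152599 in the controls. RIOK1 had the 4th lowest total count of all kinase wells. A row was taken as detected in a lane when it passed the negative-control level, which is the mean of the 8 negative-control probes of that lane plus 2 SD. Of the 42 tissue-restricted rows, 3 to 9 were detected in the 8 wells, 3 to 23 in the other wells (median of 6) and 3 in each control. The panel held 0 of the 8 lung fibroblast markers listed and 0 of the 4 epithelial, 2 endothelial and 1 leukocyte markers, so the labelled cell type could not be checked. RNA was taken from whole wells, and fewer cells and less RNA per cell cannot be told apart.

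The largest difference among the 8 wells was in the row that the files name ZBTB33. Values here and below are normalized counts, scaled by the positive controls and then by PGK1, TBP and TUBB2A. The row stood at 8.76 and 18.3 in the IMR90 controls and at 6.24 and 6.86 in SW39 cells, which are transformed IMR90 derivatives. In the mixed human RNA, pooled from cancer cell lines, the row was at 9.54 to 31.7. Both control values lay below the normalized negative-control levels of 25.2 and 23.1. In the other kinase wells it ran from 146.9 to 112493, with a median of 22588. By contrast, the row named for the myristoylation-Flag tag, MyrFlag, was at 507 to 773 in the 8 wells, 429 to 871 in the other kinase wells, and 666 and 715 in the controls, so that it did not separate kinase wells from controls. The 15 endogenous rows outside the tissue-restricted set are therefore given by their names in the files, with no statement on the transcript they counted.

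The ZBTB33 row was lowest in the RIO wells. It was 530 in the RIOK3 well, 4361 in the RIOK1 well and 5168 in the RIOK2 well. It was 10028 in the VRK2 well and 30493 in the VRK3 well. The ADCK wells lay near the median of the other wells, at 22781 for ADCK4 and 24476 for ADCK5, and the FASTK well was at 81501. All 3 RIO wells were below all 5 others of the 8. Ranked over all kinase wells, RIOK3 was the 4th lowest and FASTK the 6th highest. On raw counts the row rested on 659 counts in the RIOK3 lane, with an exact Poisson 95% interval of 610 to 711 that covers counting error only, and on 83545 counts in the FASTK lane.

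The row named ZBTB38 followed the same order at the low end. It was 347 in the RIOK3 well, 1928 in RIOK1, 3123 in RIOK2 and 5114 in VRK2. It was 13264 in ADCK5, 14854 in ADCK4, 17367 in VRK3 and 46128 in FASTK. Unlike the ZBTB33 row, it was well counted in the controls, at 1592 and 7044, and in SW39, at 5069 to 6570. In the mixed human RNA, however, the ZBTB38 row reached no more than 8.15. The RIOK3 well was below both controls in this row. The ratio of the ZBTB33 row to the ZBTB38 row was 1.53 to 2.26 in the 8 wells and 1.37 to 3.199 in the other wells, with a median of 1.81. Over the other kinase wells the log2 values of both rows had a Pearson r of 0.99, a description of wells that share their assay and vector.

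**Figure D1:**
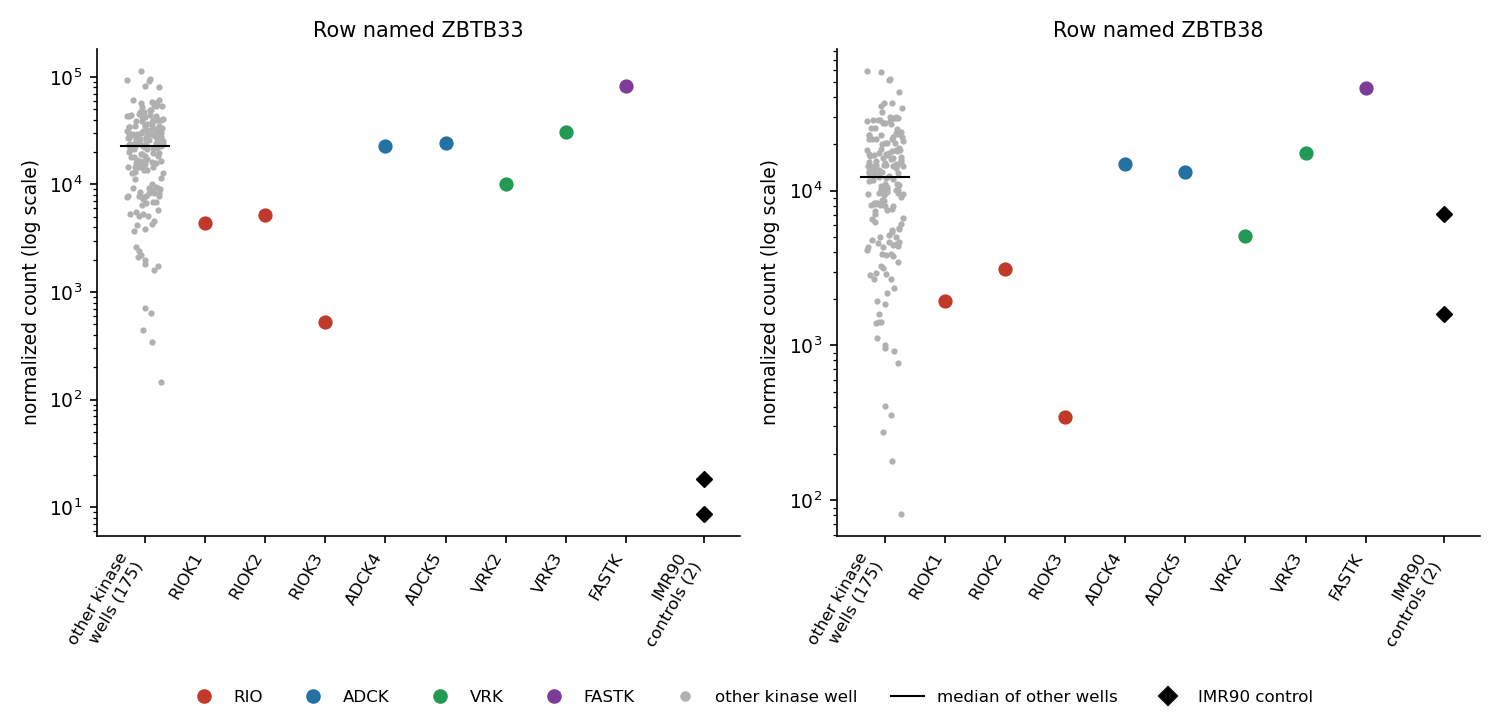
Normalized counts of the rows named ZBTB33 (left) and ZBTB38 (right) on a log scale, with 1 point per well: the other kinase wells in grey with their median as a line, the 8 wells colored by family, and the 2 IMR90 controls as diamonds. The RIO wells are the lowest of the 8 in both rows, with RIOK3 at 530 and 347, FASTK is the highest at 81501 and 46128, and the controls are at 8.76 and 18.3 in the ZBTB33 row only.

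Against the IMR90 controls, the ZBTB33 row was higher in the 8 wells, with a log2 fold change of 10.68 (SE 1.93, edgeR quasi-likelihood test with Benjamini-Hochberg adjustment over 58 rows, adjusted p = 6.11e-06). Since the controls were within background, this fold is not exact. It was the 1 row called of 58, or 1.72%, and in the Tet2 row the log2 fold change was -0.30 (SE 0.14, unadjusted p = 0.0287, adjusted p = 0.576). The other kinase wells, set against the same controls, also had 1 row of 58 called (1.72%), the ZBTB33 row at a log2 fold change of 10.85 (SE 1.93, edgeR adjusted p = 3.70e-06). Both comparisons share their control wells. Earlier work on these data had already found this row to behave as a vector row. Both outcomes were thus known beforehand, and their p-values are no independent support.

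Taken as a group, the 8 wells had no row that passed the test against the other kinase wells. By edgeR, 0 of 58 rows were called (0.0%), 0 had an unadjusted p under 0.05, and the smallest adjusted p was 0.841. DESeq2 and limma also called 0 rows. Log2 fold changes ran from -0.39 to 0.11, with a median of -0.15, and were negative in 52 of 58 rows. With TMM factors in place of the 3 housekeeping genes the median was -0.01. With runs of 12 consecutive sample numbers as a block, a fit that leaves out the FASTK lane, 3 rows were called lower, namely MAGEA12, CTAG1B and ROPN1, and with the FASTK lane placed in the block of its number 70 there were 0. In simulated data of the same size, 92.5% of rows changed 2-fold between the 8 wells and the other wells were called. That share pools rows of unlike spread, and the simulated wells had no differences between runs of sample numbers.

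The best counted tissue-restricted genes did not set the 8 wells apart. ADAM12, a membrane metalloprotease, was at 45.5 in RIOK1, 42.9 in RIOK2, 43.4 in RIOK3, 54 in ADCK4, 37.7 in ADCK5, 35 in VRK2, 51.5 in VRK3 and 45.9 in FASTK. These values lie inside the range of the other wells (26.2 to 504, median of 44.9) and around the controls at 35 and 46.8. Its log2 fold change between the 8 wells and the other wells was -0.15 (SE 0.19, edgeR adjusted p = 0.841), and its Z-scores ran from -0.93 to 0.55. A Z-score is the distance of a well's log2(normalized count + 1) from the mean of the other kinase wells, in SD of those wells.

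ATAD2, a bromodomain ATPase of chromatin that is often raised in tumors, was at 134.6 in ADCK5, 138.5 in FASTK, 140.2 in VRK3, 150.7 in RIOK1, 170.8 in ADCK4, 191.5 in RIOK3, 194.8 in RIOK2 and 217.6 in VRK2. The controls were at 184.9 and 229.1, and the transformed SW39 cells at 2639 to 2991. All 8 wells were thus within the range of the other kinase wells, 89.1 to 267.5, and the log2 fold change was -0.09 (SE 0.10, edgeR adjusted p = 0.841). PLCZ1, the sperm phospholipase that starts calcium waves in the egg, is the remaining tissue-restricted row above background besides ALAS1. It was between 16.1 in RIOK3 and 40.2 in VRK3, and its count passed the negative-control level in 6 of the 8 lanes.

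The other 38 tissue-restricted rows were weak. In these 8 lanes, 28 of the 38 rows were above the negative-control level in 0 wells and 10 in at least 1 well, with ADAM2 and SPATA22 highest at 4 of 8. Their values rest on few counts, and a difference between wells of a few counts cannot be read as expression. The 8 rows with the smallest p between the 8 wells and the others all had negative log2 fold changes. They were CTCFL, the testis relative of the insulator protein CTCF (-0.31, SE 0.21), FMR1NB (-0.26), XAGE1 (-0.36), RBM46 (-0.39), the rows named PLA2R1 (-0.11) and Tet1 (-0.14), TPTE (-0.36) and TKTL1 (-0.26, SE 0.20). Each of these had an edgeR adjusted p of 0.841. With 1 well left out the TKTL1 value ranged from -0.44 (without VRK3) to -0.15 (without FASTK), and CTCFL was at -0.52 without VRK3. In CTCFL, for example, the 8 wells ran from 3.14 in RIOK1, on 2 counts, to 13.4 in VRK3, on 13 counts, and overlapped the other wells at 2.23 to 17.7.

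Grouped by function, no list had a row called in the comparison of the 8 wells with the others. The 5 MAGE antigens, which are normally silent outside the testis, had a median log2 fold change of -0.19. The 7 other cancer/testis antigens (PRAME, CTAG1B, FMR1NB and the SSX and XAGE genes) were at -0.26, and the 7 genes of germ cell RNA binding and the piRNA pathway (such as DAZL, DDX4, PIWIL1 and MAEL) at -0.20. Those of germline chromatin and meiosis (7 rows, among them BRDT, CTCFL and HORMAD1) were at -0.09. The 7 genes of sperm structure and fertilization were at -0.09 and the 6 enzymes at -0.16. All 58 rows had a median of -0.15, the 17 rows above background -0.08, and the 38 weak rows -0.20. The 7 rows with names of DNA methylation factors, given by name alone, had a median of -0.07.

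**Figure D2:**
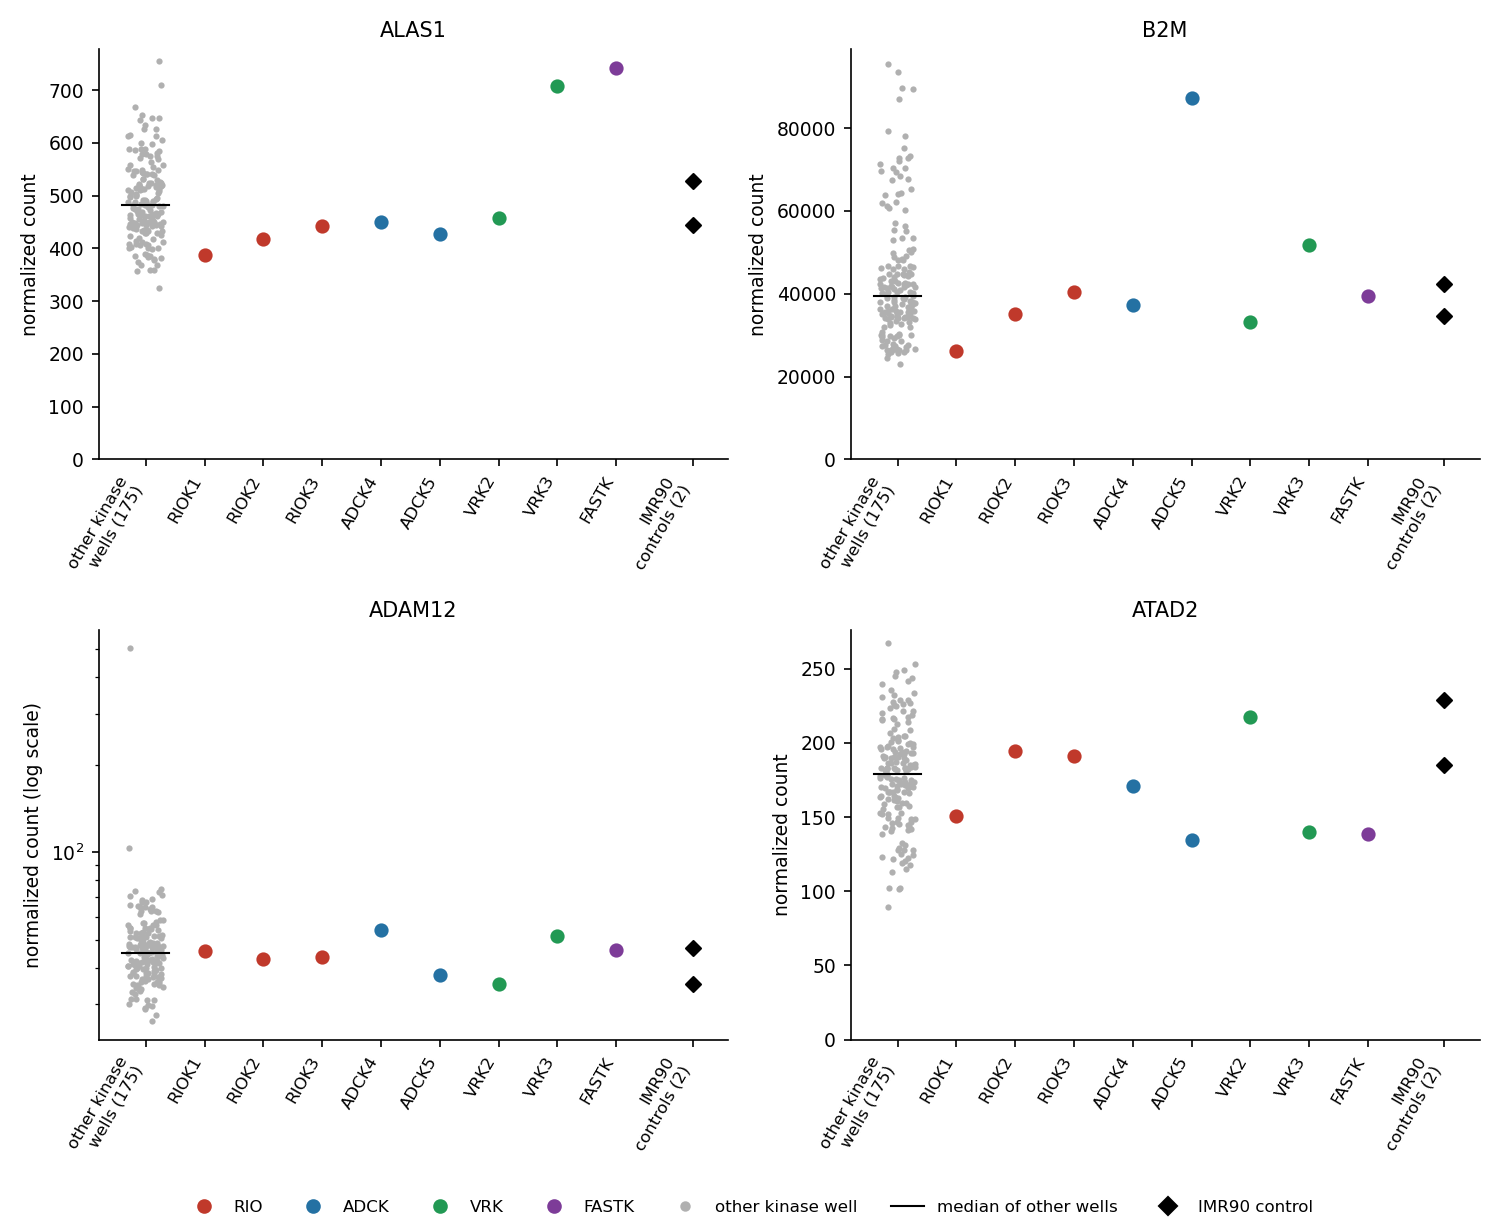
Normalized counts of ALAS1, B2M, ADAM12 (log scale) and ATAD2 with 1 point per well, the other kinase wells in grey with their median as a line, the 8 wells colored by family and the 2 IMR90 controls as diamonds. VRK3 and FASTK stand near the top of the ALAS1 values at 708 and 741, ADCK5 near the top of B2M at 87401, and the 8 wells are spread among the other wells for ADAM12 and ATAD2.

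Among single wells, ALAS1 gave the 2 pairs above a Z-score of 2.5. ALAS1, the first enzyme of heme synthesis, was at 741 in the FASTK well (760 counts, exact Poisson 95% interval of 707 to 816) and at 708 in the VRK3 well (687 counts, interval of 637 to 740). It was 388 in RIOK1, 418 in RIOK2, 427 in ADCK5, 443 in RIOK3, 451 in ADCK4 and 458 in VRK2. The other kinase wells ran from 326 to 756, with a median of 482, and the controls were at 445 and 527. FASTK (Z-score of 2.83) was the 2nd highest of all kinase wells and VRK3 (2.53) the 4th. These 2 wells stood clear of the other 6, which were all below the median of the other kinase wells.

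The 11 other wells with sample numbers in the same run of 12 as VRK3 also had high ALAS1, with a median of 635 and a highest value of 710. Centred on such runs, the Z-score of VRK3 was 0.91. FASTK, as the lane with the 70-2 title, was placed in no such run, and the labels do not say which lanes it was handled with. Over the alternatives its Z-score stayed between 2.26 and 2.997. Between the 8 wells as a group and the other wells, the log2 fold change of ALAS1 was 0.04 (SE 0.08, edgeR adjusted p = 0.930), and without FASTK it was -0.06, without VRK3 -0.04. Over the other kinase wells ALAS1 had a Pearson r of 0.30 and a Spearman rho of 0.42 with the ZBTB33 row. Among the 8 wells that row was highest in FASTK and VRK3, and its part in their ALAS1 values was not tested.

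In total, 464 well and row pairs were scored in the 8 wells. Of these 2 were above 2.5 (0.431%), where the other kinase wells had 39 of 10150 pairs (0.384%), and 5 were below -2.5 (1.08%), where the other wells had 88 (0.867%). These shares were close to the background. No pair was beyond 3.5 in either direction. The other wells had 15 of 10150, so rare that 0 of 464 is no contrast. The pairs below -2.5 were the rows named ZBTB33, ZBTB38 and ZBTB4 in RIOK3 (-3.20, -3.00 and -2.95) and the rows named KCNA1 and Tet2 in ADCK5 (-2.87 and -2.54). Among the 336 pairs of tissue-restricted rows 0 were below -2.5. Most of these rows were weak, and the share in the other wells was not counted, so the 0 is not read as a trait of the 8 wells. The ZBTB4 value rested on 1 count in the RIOK3 lane, against a negative-control level of 28.8 counts. With all values under that level raised to it, its Z-score was 0.11.

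**Figure D3:**
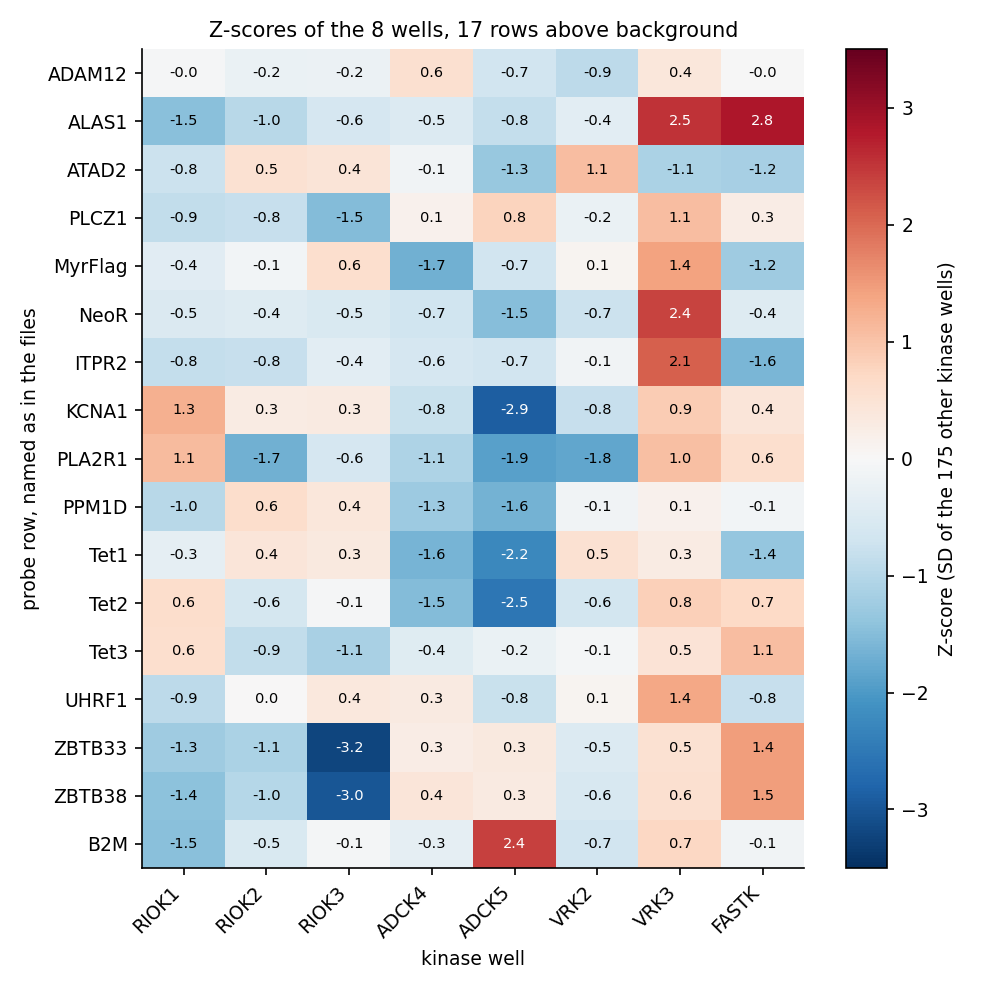
Z-scores of the 8 wells (columns) for the 17 rows above background (rows), in SD of the other kinase wells around their mean, with red for higher and blue for lower values. The deepest cells are ALAS1 in VRK3 and FASTK, the ZBTB33 and ZBTB38 rows in RIOK3, and the KCNA1 and Tet2 rows in ADCK5.

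The ADCK5 well was high in B2M and low in several other rows at once, and some wells of other kinases had like values. B2M, the light chain of MHC class I molecules, was at 87401 there. It was 26092 in RIOK1, 33263 in VRK2, 35005 in RIOK2, 37296 in ADCK4, 39534 in FASTK, 40460 in RIOK3 and 51841 in VRK3. The other kinase wells had a median of 39466 and ran from 23153 to 95452, and the controls were at 34536 and 42408. ADCK5 was the 5th highest of all kinase wells (Z-score of 2.38), above all 9 other wells of its run of 12 numbers, which reached 53449. At the other end RIOK1 had a Z-score of -1.45. The B2M log2 fold change of the 8 wells against the other wells was 0.01 (SE 0.18, edgeR adjusted p = 0.992), and without ADCK5 it was -0.21.

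In the same ADCK5 well the row named KCNA1 was at 27.2, on 34 counts with a negative-control level of 28.1. The row named Tet2 was at 508, the lowest of all kinase wells, and the row named Tet1 at 215 (Z-score of -2.25). All 3 were below every other well of its run of 12. The ADCK4 well, from another run, was at 44.4, 575 and 243 in these rows, each below all 10 others of its own run. That run follows sample numbers alone, and in the order of the samples ADCK4 stands apart from most of those 10 wells. The 3 wells nearest to ADCK5 over 15 rows, those above background without ZBTB33 and ZBTB38, were MAP3K6, PKM2 and TYK2, at root mean square log2 differences of 0.164, 0.166 and 0.180. In these wells B2M was at 72755, 89762 and 89413, the Tet1 row at 216, 185.1 and 229, the Tet2 row at 550.4, 534 and 555, and the KCNA1 row at 35.2, 33.3 and 38.1. High B2M with low values in these rows was thus not particular to ADCK5. All 3 of these wells carry numbers from 1 run of 12, another than that of ADCK5, and the part of the run was not tested. They were picked by closeness over rows that include these, so their likeness follows in part from the choice. The root mean square Z-score over the same 15 rows was 1.61 in ADCK5, the 9th highest of all kinase wells. It was 1.32 in VRK3, 1.11 in FASTK, 0.929 in ADCK4, 0.897 in RIOK1, 0.727 in VRK2, 0.712 in RIOK2 and 0.623 in RIOK3, with a median of 0.864 in the other wells.

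The families were then compared with the other wells one at a time. For the 3 RIO wells, 0 of 58 rows were called (0.0%) and 10 had an unadjusted p under 0.05. The ZBTB33 row had a log2 fold change of -2.91 (SE 0.97, 95% interval of -4.81 to -1.01, edgeR adjusted p = 0.0907) and the ZBTB38 row one of -2.97 (SE 0.99, adjusted p = 0.0907). Outcomes depended on the setting: 7 of 18 alternatives called the ZBTB33 row lower, and 7 of 19 the ZBTB38 row. Among these were DESeq2 (adjusted p = 0.000904) and the edgeR test on the 17 rows above background alone (adjusted p = 0.0287). The remaining alternatives called neither row. With 1 RIO well left out the adjusted p was between 0.166 and 0.623, and without RIOK3 the ZBTB33 value was -2.40. Within runs of 12 sample numbers, RIOK3 was lower than 10 of 11 other wells (median of 8769), RIOK2 lower than 8 of 9 (median of 48744) and RIOK1 lower than all 10 (median of 28578). With the log2 of the ZBTB33 row as a covariate, a setting added after the values were seen, the ZBTB38 row was at 0.04.

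Most weak rows of the RIO wells also had negative log2 fold changes. The ZBTB4 row was at -1.86 (edgeR adjusted p = 0.156). TKTL1, a transketolase-like enzyme, was at -0.93, MAGEA12 at -1.48, and the piRNA pathway genes PIWIL1 and MAEL at -1.37 and -1.53. MAGEB18 was at -1.12 and C10ORF82 at -1.05, and the row named PuroR at -0.98. All of these had an unadjusted p under 0.05 and an edgeR adjusted p from 0.156 to 0.272, and they are named here because of these values. The median over the 38 weak rows was -0.43, with 35 negative, against -0.37 over all 58 rows and -0.08 over the 17 rows above background. With values under the negative-control level set to it, the median over all rows was 0.02. Simulated 2-fold changes in the RIO wells were called in 59.5% of rows and 4-fold changes in 95%. These shares pool rows of unlike spread, and the simulated wells had no differences between runs of sample numbers. They do not hold for a given row: the ZBTB33 and ZBTB38 rows, at -2.91 and -2.97, were not called.

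The RIO wells were also set against the other 5 of the 8 wells, a comparison added after the values were seen. Of 58 rows 0 were called (0.0%) and 10 had an unadjusted p under 0.05. The ZBTB33 row had a log2 fold change of -3.34 (SE 1.08, edgeR adjusted p = 0.0681), the ZBTB38 row -3.43 (SE 1.10, adjusted p = 0.0681) and ALAS1 -0.42 (SE 0.16, adjusted p = 0.166). The ZBTB33 row was called lower in 4 of 23 alternatives and the ZBTB38 row in 4 of 24. Among these were DESeq2 (adjusted p = 0.00417) and the edgeR fit without VRK2 (adjusted p = 0.0450), the lowest of the other 5 in both rows. Over the 8 fits with 1 well left out, the edgeR adjusted p ran from 0.0450 to 0.471.

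For the 2 ADCK wells, 0 of 58 rows were called (0.0%) and 5 had an unadjusted p under 0.05, all lower, and DESeq2 and limma called 0. They were the rows named Tet1 (-0.59, SE 0.21), Tet2 (-0.36, SE 0.13), KCNA1 (-0.60, SE 0.24), PPM1D (-0.59, SE 0.27) and PLA2R1 (-0.32, SE 0.15), with edgeR adjusted p from 0.180 to 0.434. The KCNA1 value was -0.28 without ADCK5 and -0.99 without ADCK4. Tested on the 17 rows above background alone, Tet1 and Tet2 were called lower (adjusted p = 0.0492). B2M was at 0.52 (SE 0.32), with ADCK5 above and ADCK4 just below the median of the other wells. The median over all rows was -0.12.

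For the 2 VRK wells, 0 of 58 rows were called (0.0%) and 0 had an unadjusted p under 0.05, and DESeq2 and limma called 0. The smallest belonged to MAGEA12 (-1.33, SE 0.68), on 4 counts in VRK2 and 5 in VRK3, and ALAS1 was at 0.25 (SE 0.15), with VRK2 and VRK3 on opposite sides of the median. The median over all rows was -0.06. VRK3 also stood high in the rows named NeoR (Z-score of 2.36), DNMT1 (2.13) and ITPR2 (2.09), while VRK2 did not, with -0.74, -0.73 and -0.12.

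**Figure D4:**
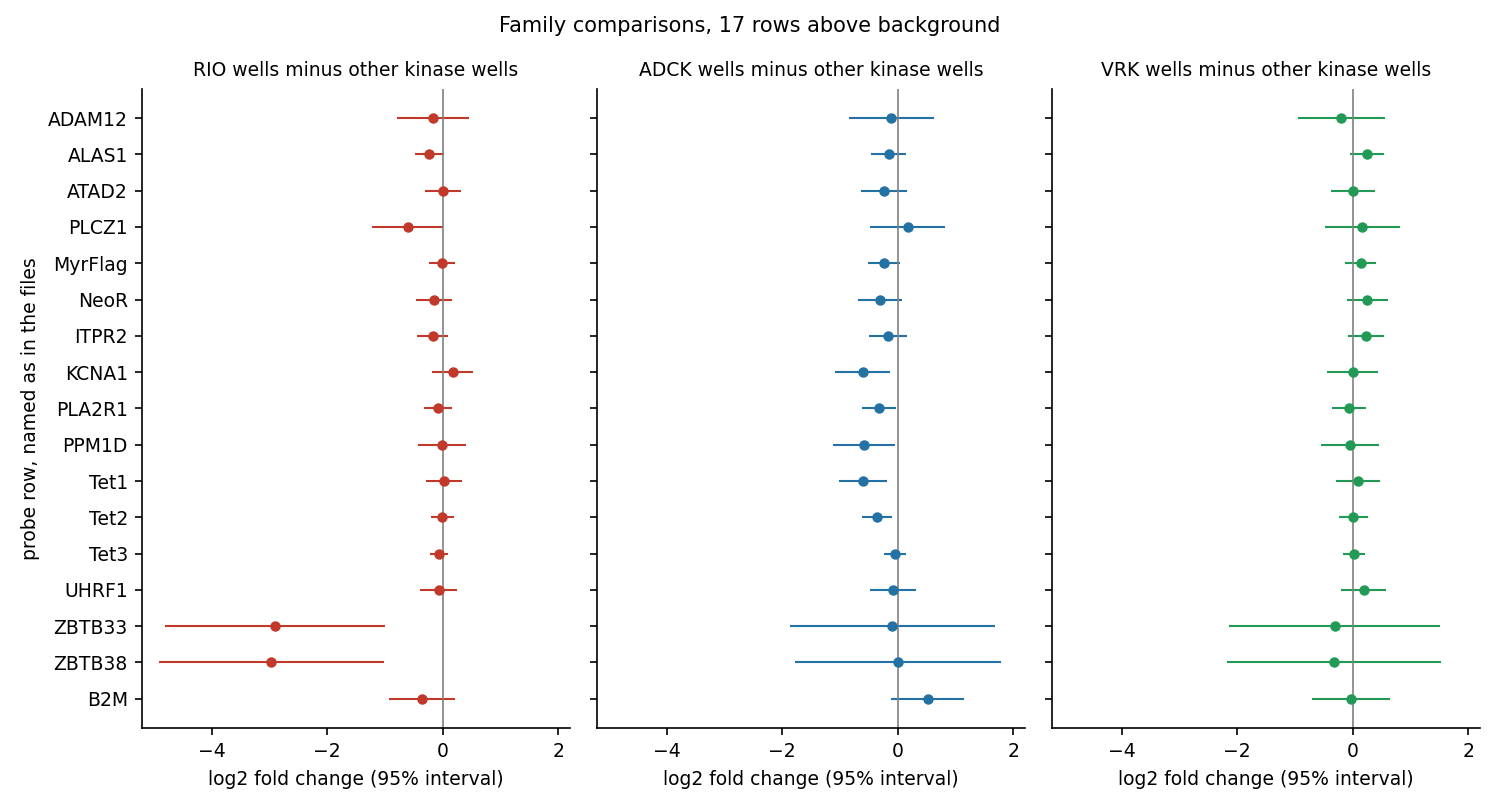
Log2 fold change of the 17 rows above background in the RIO, ADCK and VRK wells against the other kinase wells (edgeR), with bars for the 95% interval and a line at 0. The ZBTB33 and ZBTB38 rows of the RIO wells are farthest from 0, at -2.91 and -2.97, and in the ADCK wells the KCNA1, PPM1D, Tet1 and Tet2 rows lie below it.

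The summed level of the 38 weak tissue-restricted rows divided the 8 wells in another way. It was 249 in VRK2, 252 in RIOK2 and 265 in RIOK3, close to the controls at 237 and 277. It was 371 in ADCK4, 403 in RIOK1, 416 in ADCK5, 489 in FASTK and 493 in VRK3. The other wells ran from 182.4 to 721, with a median of 400, so that VRK2, RIOK2 and RIOK3 were the 11th, 12th and 18th lowest of all kinase wells. In each of these 3 wells, 35 to 37 of the 38 rows were below the mean of the other wells. The number was 20 in ADCK5, 19 in ADCK4, 18 in RIOK1, 11 in FASTK and 7 in VRK3. It is not given for the single other kinase wells, so these numbers have no background to be set against. The negative-control probes, summed, were at 65.4 to 86.9 in the 8 wells and did not follow the weak sums. RIOK3 (86.9), RIOK2 (83.5) and VRK2 (76.01), with the lowest weak sums, had the 3 highest negative-control sums, and FASTK had the lowest. VRK3, with the highest weak sum, was at 75.2, and ADCK4, RIOK1 and ADCK5 rose in the same order in both sums.

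This sum varied with the ZBTB33 row. Over the other kinase wells the log2 of the row and of the sum had a Pearson r of 0.48 and a Spearman rho of 0.49, and r was 0.46 without the 2 wells farthest from the median. The summed negative controls had an r of -0.14 with the row. For single weak rows rho ran from -0.04 to 0.83, with a median of 0.22. All these points share the lane scaling, and the part of the row in the sums of the 8 wells was not tested.

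**Figure D5:**
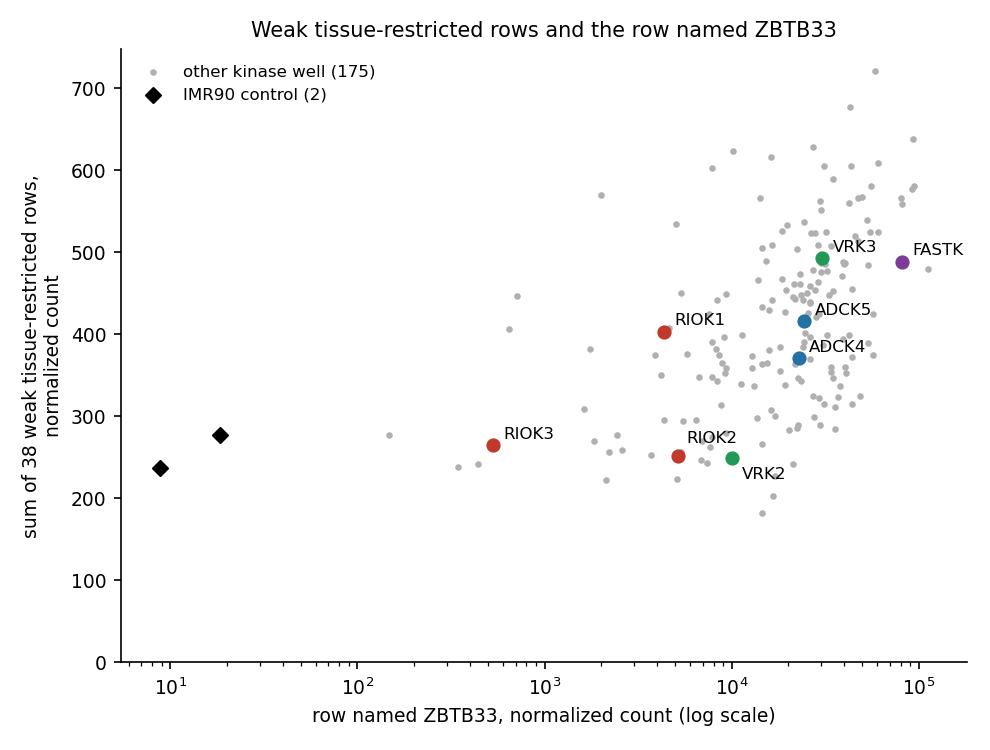
Sum of the normalized counts of the 38 weak tissue-restricted rows against the row named ZBTB33 (log scale), with 1 point per well. RIOK3, RIOK2 and VRK2 lie at sums of 249 to 265, near the 2 controls at 237 and 277, while VRK3 and FASTK are at 493 and 489. RIOK1, with the 2nd lowest ZBTB33 row of the 8 wells (4361), is at 403, near the median of 400 in the other wells.

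Wells of one family were not each other's nearest neighbors. Likeness was measured as the root mean square log2 difference over the 15 rows above background other than ZBTB33 and ZBTB38. RIOK2 and RIOK3 were 6th nearest to each other, at 0.136. VRK2 had RIOK2 as its 2nd nearest well, at 0.173, and both carry numbers from the same run of 12. RIOK1 was 42nd nearest to RIOK2 from its own side, at 0.294. ADCK4 and ADCK5 were farther apart, at 0.428, the 34th nearest seen from ADCK5 but the 48th farthest seen from ADCK4. VRK2 and VRK3 were at 0.505, the 14th farthest seen from VRK2 and the 45th farthest seen from VRK3.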

How the data were processed

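Of 197 Nanostring lanes, those of 183 kinase wells (the 8 described and 175 others), 2 IMR90 controls and SW39 cells were analysed. The lane of HK1 and the second lanes of PIK3CG and PTK2, 3 lanes in all, were left out by the rule that chose the wells. The second lane of IMR90#2, which the rule does not name, was also kept out of the controls and added in an alternative. The 6 lanes of mixed human RNA were not used in any test, and only their ZBTB33 and ZBTB38 values are given. Per the labels, the authors deposited raw counts for 75 probes per lane as the instrument gave them (57 endogenous rows, 4 housekeeping, 8 negative and 6 positive controls). The authors also deposited a table of normalized signal, which in all lanes but 8 was the count multiplied by 1 factor per lane (relative spread of the factor within a lane at most 2.08e-15). None of these 8 was among the wells described, and 1 was another kinase lane, PIP5K2A. All its columns matched a sample. Software of the instrument is not given in the sources used here.

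Counts were scaled by the geometric mean of the 6 positive controls and then by that of PGK1, TBP and TUBB2A, with factors of 0.745 to 1.57 in the 8 wells. A pseudocount of 1 was added before log2. A RefSeq gene table held 55 of the 61 names of endogenous rows and housekeeping genes, and names were kept as deposited. Tests used edgeR 4.0.16 (R 4.3.3) on counts of 58 rows, the endogenous rows and B2M, with an offset from the 3 housekeeping genes, in 1 fit of all wells and controls. For the families, RIO, ADCK, VRK and FASTK were groups of their own in that fit. Calls had an adjusted p under 0.05. DESeq2 1.42.0 and limma 3.58.1 were alternatives. Values were computed in Python 3.11.15. Standard errors were derived from the F statistic. A row was above background when its median count over kinase lanes passed the median negative-control level. The fits were tested on simulated data, in 20 sets of 58 rows, where 2.63% to 5.94% of calls were false. Simulated wells were drawn independently, with no differences between runs of sample numbers.

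The wells and the gene lists were chosen with earlier results of these data known. Rows were named by rule: every row called, the 8 with the smallest p in the comparison of the 8 wells with the others, every pair beyond a Z-score of 2.5, and ADAM12, ATAD2, ALAS1, B2M, UHRF1, MyrFlag, ZBTB33 and the 3 normalizers. Other rows named were chosen after their values were seen. UHRF1 was at 662 to 1034 in the 8 wells and 470 to 1129 in the others. The normalizers in the 8 wells were at 9069 to 11130 (PGK1), 380 to 511 (TBP) and 3894 to 4936 (TUBB2A). The precision of weak rows is set by total counts per lane, and Poisson intervals cover counting error only.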

Additional observations from a re-analysis of the deposited data

Results flagged for a closer look

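In 23 rows named in the text, the 8 wells were searched for a single well far from the others by Dixon's ratio, the gap to the nearest well over the whole range. At the 95% critical value for 8 wells, about 5% of groups are picked by chance. In 1 row a well was picked. TBP, a general transcription factor used here as a normalizer, had a normalized count of 511 in the VRK3 well and 380 to 423 in the other 7 wells, a ratio of 0.637. The other kinase wells ran from 315 to 526. Since TBP is 1 of 3 normalizers, its level enters the scaling of every VRK3 value, and its part in those values was not tested.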

How the results depend on the processing

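In all, 898 values were computed again under other settings. Of these, 831 were labelled unchanged. Fold changes so labelled kept their direction and their side of the threshold. Z-scores kept their sign and moved by less than 1, whichever side of 2.5 they fell. Counts of rows or pairs stayed equal or close. The call of the ZBTB33 row against the IMR90 controls, whose outcome was known beforehand, was among the 831. Between the 8 wells and the other wells, rows called lower went from 0 to 3 with blocks of 12 sample numbers (FASTK not in the fit), and against the controls from 0 to 1 with the same blocks. For RIO wells against the other kinase wells it went to 2 with DESeq2, limma at a pseudocount of 1 or 10, a floor at the negative-control level, rows above background alone and both block fits. For RIO wells against the other 5 it went to 2 with DESeq2, rows above background alone and FASTK in the block of its number 70, a block chosen after seeing the data, and ranged from 0 to 2 with 1 well left out. For ADCK wells it went to 2 with rows above background alone. With the second IMR90#2 lane added to the controls, a setting chosen after seeing the data, the rows called higher in the other kinase wells went from 1 to 3 (ADCY10 and DAZL were added), and the 8 wells kept 1, the ZBTB33 row at 10.69 (edgeR adjusted p = 9.41e-09). Pairs above a Z-score of 2.5, 2 in the report, were 0 on the authors' table, 1 with positive controls only, with B2M as a normalizer or with all IMR90 wells, and 4 with the median and MAD. Pairs below -2.5, 5 in the report, were 3 with positive controls only and 9 with blocks centred. Pairs beyond 3.5 were 2 with the median and MAD.

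Some directions turned, all of values that were not called. With TMM factors ATAD2 was at 0.0763, PLA2R1 at 0.0166 and Tet1 at 0.0159 in the 8 wells against the others. B2M was at -0.00422 with limma at either pseudocount or the floor, ALAS1 at -0.0858 with blocks (FASTK not in the fit), and ZBTB38 at 0.0416 (RIO wells against the other kinase wells) and 0.0164 (against the other 5) with the ZBTB33 row as a covariate, a setting chosen after seeing the data. With 1 well left out, the ZBTB33 row ranged from -0.85 to 0.0201 (without RIOK3), B2M from -0.21 (without ADCK5; -0.03 without VRK3) to 0.0935, and ALAS1 from -0.0577 (without FASTK; -0.04 without VRK3) to 0.0881. Tet1 ranged from -0.19 to -0.078 (without ADCK5), PLA2R1 from -0.16 to -0.068 (without ADCK5) and ATAD2 from -0.16 (without VRK2) to -0.053 (without ADCK5). The Z-score of ZBTB4 in RIOK3 was 0.11 with the floor, which lifts its 1 count. For the rest the cause was not tested. No paired analysis was possible because each kinase had 1 lane and the replicate numbers only name the samples.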
